A study of Mus musculus with 2 samples.

Results

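Collagen and laminin chains were followed through the Lrrc19 KO microarray data as the transcripts of the extracellular matrix that surrounds and underlies the gut epithelium. A gene was a member when at least 1 probe set had a single platform gene symbol made of Col, a number, a and a number, or of Lama, Lamb or Lamc and a number. This rule took 52 of 18193 genes, with 101 probe sets, and split them into 11 fibrillar collagens, 16 basement membrane chains and 25 other collagens. Col6a6, Col21a1 and Col28a1 had no such probe set and were not analysed here. The study asked how the loss of LRRC19, a leucine-rich repeat receptor of gut epithelial cells, changes the intestine. RNA of 5 Lrrc19 KO mice (2 males and 3 females) was pooled evenly for 1 Affymetrix mouse array, and RNA of 5 WT mice (also 2 males and 3 females) was pooled for another. Both genotypes were C57BL/6, 6 weeks old and raised under specific pathogen free conditions, and no treatment is named. Cells were shaken off the opened intestine with EDTA, which loosens epithelium, and magnetic beads then took out macrophages, dendritic cells, B cells, and T cells carrying CD4 or CD8.

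With 1 array for each genotype, the differences have no replicate check, no test across mice could be run, and every value describes these 2 pools alone. The labels and the methods do not name the exons that the KO allele lacks. Lrrc19 itself had an intensity of 212 in the Lrrc19 KO pool and 905 in the WT pool, 4.26-fold lower, and on its other probe set it had 20.9 in Lrrc19 KO, under the floor described below, and 391 in WT. The deposited intensities are on a linear scale in arbitrary units. Each difference below is the log2 intensity of the Lrrc19 KO pool minus that of the WT pool, taken on the brightest probe set of the gene. A gene was counted when at least 1 pool reached the floor, the median of all values (127). It was called higher or lower when the pools differed at least 1.5-fold, a log2 difference of 0.58 in size. All 12518 genes reaching the floor had a median log2 difference of 0.01 with a robust SD of 0.27.

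Collagens are triple helices of 3 alpha chains, and their chains are hydroxylated, folded and assembled in the endoplasmic reticulum before secretion. Fibrillar collagens form the tensile cables of the lamina propria and submucosa and are made mostly by fibroblasts. Collagen IV and the laminins, which are cross-shaped trimers of an alpha, a beta and a gamma chain, form the sheet-like basement membranes under epithelium and around smooth muscle, vessels and nerves. In the gut, epithelial cells themselves make part of the laminin they stand on, whereas most collagen comes from the mesenchyme.

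The gene pairs of collagen IV lie head to head in the genome, and the pair of Col4a1 and Col4a2 is shown because both genes had nearly the same difference between the pools. In RefSeq on GRCm38.p6, transcription of Col4a2 starts at position 11312805 of chromosome 8 and runs along the plus strand. That of Col4a1 starts at 11312826 and runs along the minus strand. The starts are thus 21 bases apart, and the 2 transcribed regions overlap between them. The first sequence is chr8:11312801-11312830 on the plus strand, with both start bases in capitals. The next 2 are the 250 bases before each start, read along the strand of the gene (Col4a2 at chr8:11312555-11312804, plus strand, and Col4a1 at chr8:11312827-11313076, minus strand). Because of the overlap, each of these 2 windows lies past the start of the other gene, on its transcribed side. The last one is the window of Col27a1 (chr4:63215162-63215411, plus strand), the fibrillar collagen called higher in Lrrc19 KO. In these windows the capitals mark a CCAAT box or a GC box (GGGCGG), on either strand.
Start bases of Col4a2 and Col4a1: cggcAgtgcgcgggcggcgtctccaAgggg
Col4a2: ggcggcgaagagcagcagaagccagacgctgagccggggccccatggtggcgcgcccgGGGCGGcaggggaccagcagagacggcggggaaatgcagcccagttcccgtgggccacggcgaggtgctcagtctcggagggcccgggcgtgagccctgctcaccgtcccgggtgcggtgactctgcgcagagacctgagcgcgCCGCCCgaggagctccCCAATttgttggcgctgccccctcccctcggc
Col4a1: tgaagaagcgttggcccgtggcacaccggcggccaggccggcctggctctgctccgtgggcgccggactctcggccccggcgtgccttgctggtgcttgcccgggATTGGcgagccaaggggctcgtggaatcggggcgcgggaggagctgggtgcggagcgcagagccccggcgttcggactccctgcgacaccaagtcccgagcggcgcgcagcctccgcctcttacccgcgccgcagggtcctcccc
Col27a1: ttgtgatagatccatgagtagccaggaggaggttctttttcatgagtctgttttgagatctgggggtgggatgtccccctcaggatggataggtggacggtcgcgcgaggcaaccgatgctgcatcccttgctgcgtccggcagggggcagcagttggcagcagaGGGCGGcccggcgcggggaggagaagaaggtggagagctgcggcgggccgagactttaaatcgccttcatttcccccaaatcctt
Col4a2 held a CCAAT box at -32 to -28 and GC boxes at -192 to -187 and -48 to -43, counted from the start, Col4a1 a CCAAT box at -145 to -141, and Col27a1 a GC box at -85 to -80.

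RefSeq windows were found for 38 of the 52 members, 42 windows in all, and were set beside 32851 windows of all genes of the same 250 bases. The GC box was in 54.8% of member windows and 32.7% of all windows. By class it was in 75% of fibrillar collagen windows (6 of 8), 45.5% in basement membrane chains (5 of 11) and 52.2% in other collagens (12 of 23). With so few windows, the order of the classes can turn on a few of them. The CCAAT box was in 33.3% of member windows and 33.8% of all windows. The TATA box, searched as TATAAA, was in 11.9% of member windows and 12.4% of all windows. Of the fibrillar chains that reached the floor, Col1a2, Col3a1, Col5a1 and Col27a1 had a window, and the box was in that of Col3a1 at -117 to -112. The AP-1 site, searched on both strands as TGANTCA, was in 2.38% of member windows and 6.75% of all windows, and the member that held it was Col6a1 at -90 to -84. These are matches of letters and do not show that a factor binds.

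Of the 52 members, 38 reached the floor. In the Lrrc19 KO pool 3 were at least 1.5-fold higher than in the WT pool, against 2.78% of all genes, and 1 was at least 1.5-fold lower, against 3.4% of all genes. Lama3 was at least 2-fold higher (0.559% of all genes), and 0 members were at least 2-fold lower (0.407% of all genes). Lama3, Col12a1 and Col27a1 were the 3 called higher, and Col14a1 was the 1 called lower. Most chains differed little, with a median log2 difference of 0.13 over the 38 members and a range of -0.60 to 1.12. As deposited, 27 of the 38 had a positive difference (71.1%, beside 52.1% of all genes), but 22 did with the 2 array medians set equal, 24 after quantile normalization and 4 when the hybridization spike-ins were set to 0. In bulk RNA such as this, fewer cells of a type and less RNA per cell cannot be told apart.

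**Figure D1:**
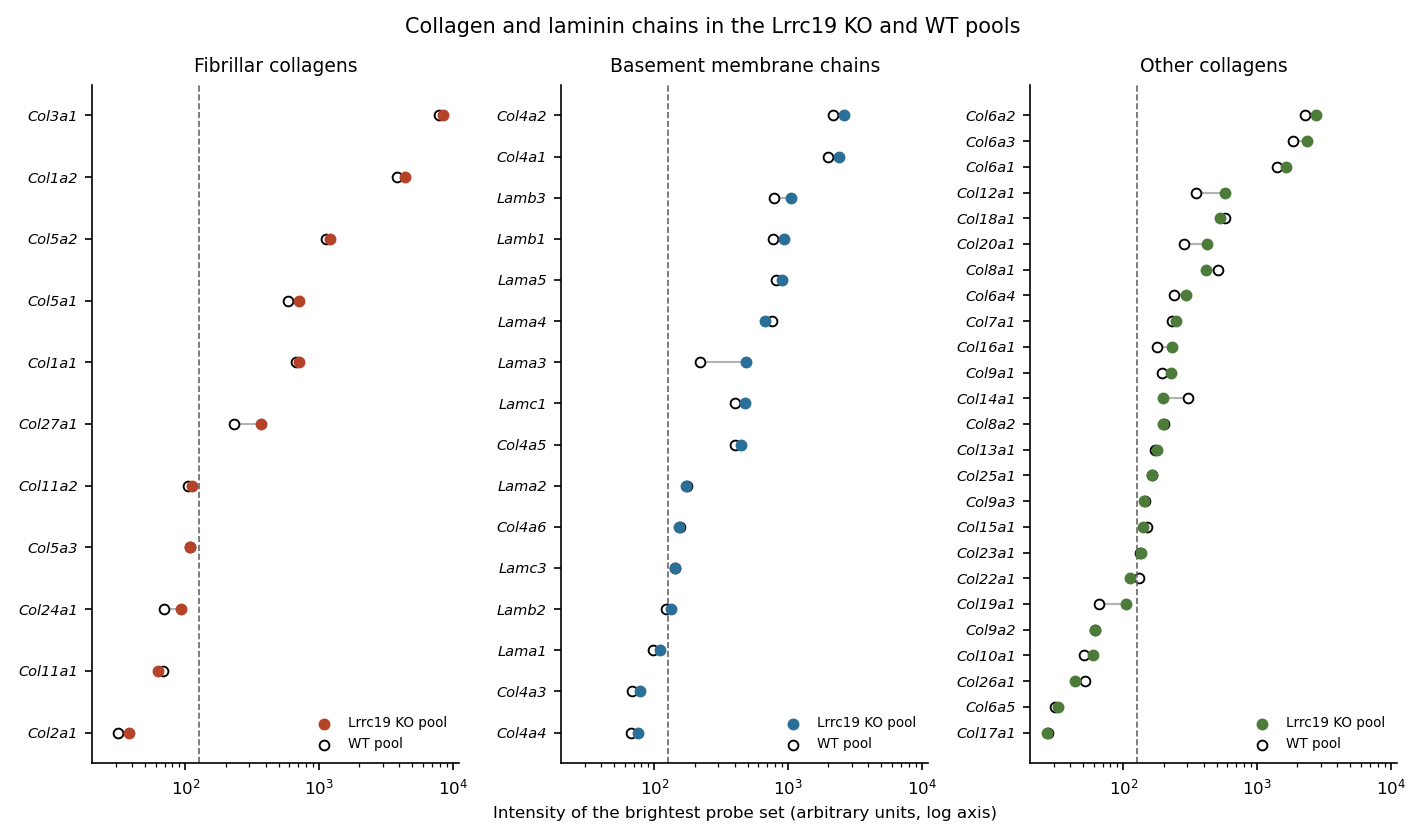
Intensity (arbitrary units, log axis) of the brightest probe set of each of the 52 chains in the Lrrc19 KO pool (filled) and the WT pool (open), by class, 1 array for each genotype. The dashed line is the floor of 127, under which 14 chains lie in both pools. The distance between the points of Lama3 (481 in Lrrc19 KO and 221 in WT) is the widest among chains above the floor. Brightness also depends on the probes, so the order of the genes is no ranking of expression.

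The spike-ins, bacterial and phage transcripts added before hybridization, were higher on the Lrrc19 KO array on 18 of 18 probe sets, with a median log2 difference of 0.50. Setting them to 0 lowers every difference by that amount and gave a median of -0.49 over all genes. Counts of positive differences are taken against 0 here, so under that scaling they are to be read beside the median of all genes. Relative to the median of all genes under each scaling, the median of the members was higher by 0.12 as deposited, with the same median and with the spike-ins, and by 0.15 after quantile normalization. The ratio of the 3' to the 5' probe set of Gapdh, a measure of RNA integrity, was 1.5 in Lrrc19 KO and 1.26 in WT, and that of Actb was 1.77 in Lrrc19 KO and 1.75 in WT. The part of these ratios in the values of the chains was not tested.

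**Figure D2:**
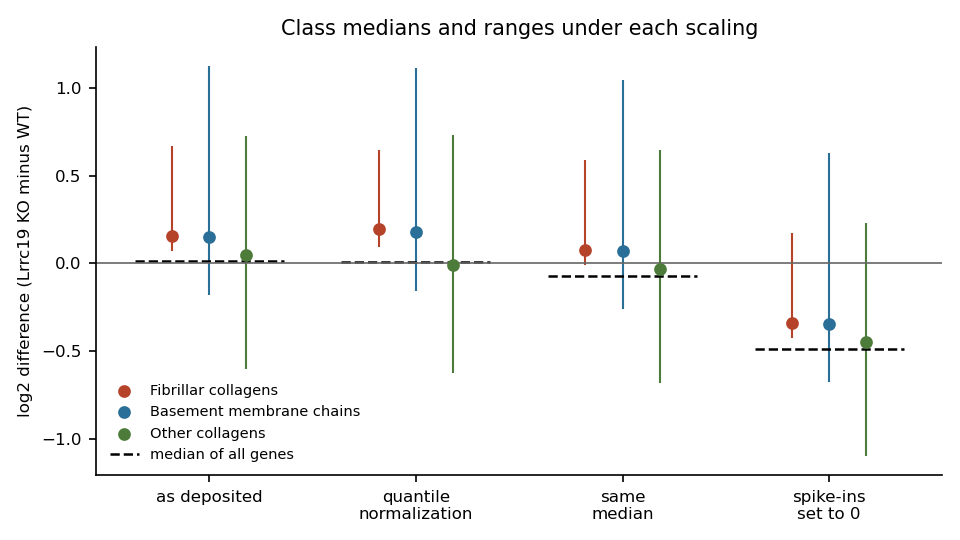
Median (points) and range (lines) of the log2 difference, Lrrc19 KO minus WT, in 6 fibrillar collagens, 13 basement membrane chains and 19 other collagens under 4 scalings of the arrays. The chains are the 38 that reached the floor as deposited, and the dashed line is the median of all genes that reach the floor under each scaling. With the spike-ins set to 0, all 3 class medians lie under 0 (-0.34, -0.34 and -0.45) and above the median of all genes (-0.49), and with the floor applied again to the chains the fibrillar median is -0.40.

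Of the fibrillar collagens, 1 chain differed by 1.5-fold or more between the pools. Of 11 genes, 6 reached the floor, with a median log2 difference of 0.16, and 6 of 6 were positive as deposited, 4 with arrays of the same median and 1 with the spike-ins set to 0. In that last setting the 6 ranged from -0.42 to 0.17, above the median of -0.49 over all genes. Col1a1 and Col1a2 encode the chains of collagen I, the main fibril of the submucosa. Col1a1 had 703 in Lrrc19 KO and 668 in WT (0.07). Col1a2 had 4412 in Lrrc19 KO and 3804 in WT (0.21). Col3a1, which encodes the collagen of thin reticular fibrils, had 8416 in Lrrc19 KO and 7965 in WT (0.08), and a further probe set had 856 in Lrrc19 KO and 858 in WT. These 3 transcripts, the main chains of the gut stroma, thus differed by less than the robust SD over all genes.

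Collagen V starts collagen I fibrils and sets their width. Col5a1 had 710.3 in Lrrc19 KO and 591 in WT (0.27), and 687 in Lrrc19 KO and 560.3 in WT on a further probe set (0.29). Col5a2 had 1202 in Lrrc19 KO and 1124 in WT (0.10). Both were under the 1.5-fold threshold. Col27a1, a fibrillar collagen known mainly from cartilage, was the 1 member of the class called higher, with 366 in Lrrc19 KO and 230.0 in WT (0.67, 1.59-fold, rank 235 of 12518 genes). Its other probe set had 222 in Lrrc19 KO and 149.7 in WT (0.57), so both probe sets had higher values in the Lrrc19 KO pool and 1 of them missed 1.5-fold. With the spike-ins set to 0 the difference of the brighter one was 0.17, under the threshold. The other 5 were under the floor in both pools and get no fold. They were the cartilage collagens Col2a1 (37.6 in Lrrc19 KO and 31.4 in WT), Col11a1 (61.9 in Lrrc19 KO and 67.7 in WT) and Col11a2 (113 in Lrrc19 KO and 105 in WT), the collagen V chain Col5a3 (108 in both) and Col24a1 (92.2 in Lrrc19 KO and 68.8 in WT).

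Among the basement membrane chains, Lama3 stood out. It encodes the laminin alpha 3 chain, which joins the beta 3 chain in a laminin that anchors epithelium through integrin alpha 6 beta 4. Its intensity was 481 in the Lrrc19 KO pool and 221 in the WT pool, 2.18-fold higher in Lrrc19 KO (log2 difference 1.12), which ranked 47 among 12518 genes. The difference was also above 0 under the other scalings (1.04 with the same median, 1.11 after quantile normalization and 0.63, under 2-fold, with the spike-ins set to 0). This probe set can match several transcripts of the gene, and the other one was under the floor in both pools, at 85.5 in Lrrc19 KO and 60.2 in WT. The 2-fold call therefore rests on 1 probe set, and with both averaged the log2 difference was 0.82.

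Lamb3, the beta 3 chain of the same laminin, had 1047 in Lrrc19 KO and 784 in WT. This was 1.34-fold higher in Lrrc19 KO (0.42, rank 848) on its single probe set, short of the threshold, and it was at -0.08 with the spike-ins set to 0. That probe set, too, can match several transcripts of the gene. Lama3 and Lamb3 nevertheless had the 2 largest differences among the 13 basement membrane chains that reached the floor. Both chains are made by epithelium, and the 6 epithelial markers had differences from -0.07 to 0.28, with summed intensities of 69129 in Lrrc19 KO and 65690 in WT. The 2 that differed most were Cdh1 (E-cadherin), with 8119 in Lrrc19 KO and 6677 in WT (0.28), and Krt20 (keratin 20), with 10333 in Lrrc19 KO and 8894 in WT (0.22). The part of epithelial content in the values of Lama3 and Lamb3 was not tested.

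The laminins of most other basement membranes share the beta 1 and gamma 1 chains. Lamb1 had 940.5 in Lrrc19 KO and 773 in WT (0.28), and Lamc1 had 478 in Lrrc19 KO and 400.3 in WT (0.26). Their alpha partners had lower differences, and none of these 5 genes passed 1.5-fold. Lama5, the main alpha chain of adult epithelium and vessels, had 895 in Lrrc19 KO and 817 in WT (0.13). Lama4, an alpha chain of vessels, muscle and nerve, had 669 in Lrrc19 KO and 758 in WT (-0.18). Lama2, the alpha chain around muscle fibres, had 171 in Lrrc19 KO and 176 in WT (-0.04). The span of the log2 difference over the chains was thus 0.15 in laminin-511 (alpha 5, beta 1, gamma 1), 0.32 in laminin-211 and 0.46 in laminin-411, compared with 0.71 between Lama3 and Lamb3. Of the chains named here, Lama3 was the 1 past 1.5-fold. Lamb2, the beta 2 chain, had 134 in Lrrc19 KO and 123 in WT, where it was under the floor, and Lamc3, the gamma 3 chain, had 142 in Lrrc19 KO and 143 in WT. Lama1, the alpha chain of embryonic laminin, was under the floor in both pools (109.9 in Lrrc19 KO and 97.8 in WT).

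Collagen IV forms the network that stiffens the basement membrane. Col4a1 had 2413 in Lrrc19 KO and 1991 in WT, and Col4a2 had 2645.5 in Lrrc19 KO and 2172 in WT. Both had a log2 difference of 0.28, and the 2 genes, whose starts are shown above, differed from each other by 0.0071. A further probe set of Col4a1 had 1193 in Lrrc19 KO and 1020.0 in WT (0.23). Col4a5 and Col4a6, whose products join in the basement membrane of smooth muscle, lie head to head on the X chromosome with starts 1343 bases apart. Col4a5 had 446 in Lrrc19 KO and 401 in WT (0.15). Col4a6 had 152 in Lrrc19 KO and 155 in WT (-0.03). Col4a3 and Col4a4, chains of the kidney filter, were under the floor in both pools (78.6 in Lrrc19 KO and 68.2 in WT, and 74.97 in Lrrc19 KO and 66.9 in WT). The 13 basement membrane chains that reached the floor had a median log2 difference of 0.15, with 9 positive as deposited, with the same median and after quantile normalization, and 1 positive with the spike-ins set to 0.

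**Figure D3:**
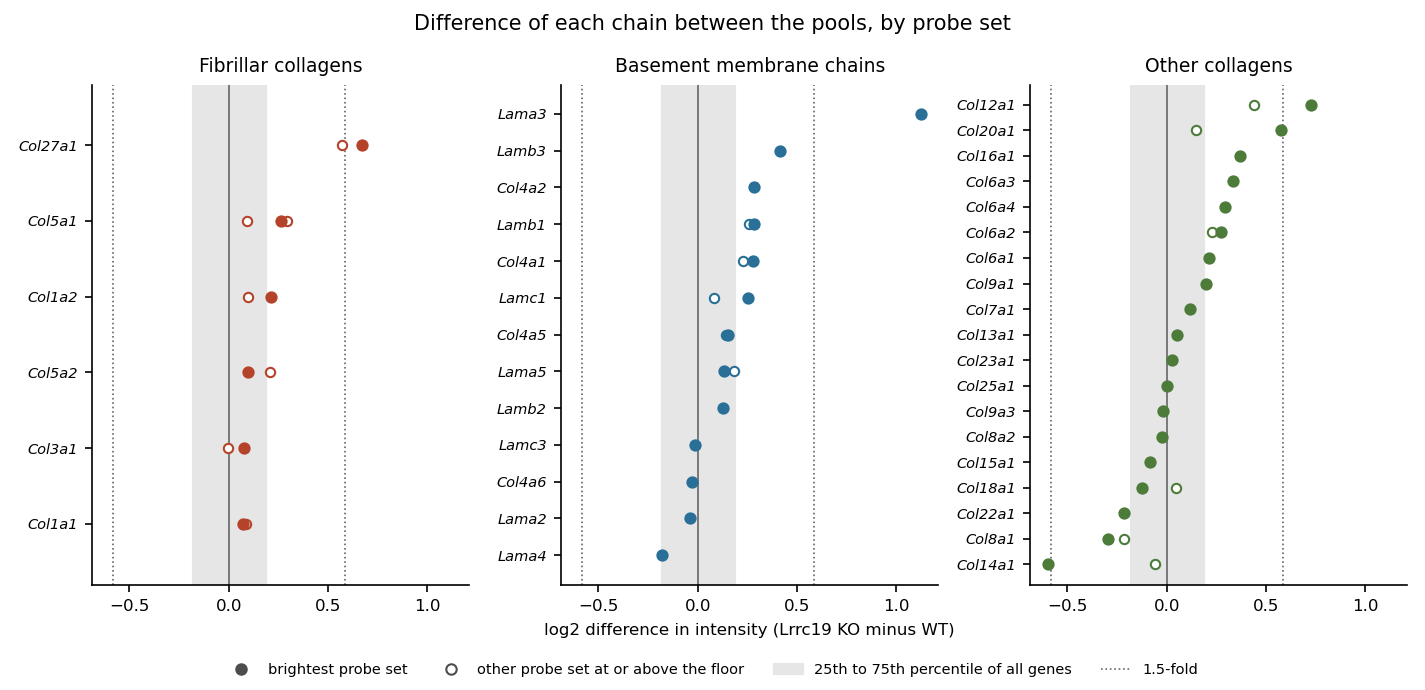
Log2 difference (Lrrc19 KO minus WT) of the 38 chains that reached the floor, by class, on the brightest probe set (filled) and on further probe sets at or above the floor (open). The grey band holds the middle part of all genes, from the 25th to the 75th percentile (-0.18 to 0.19), and dotted lines mark 1.5-fold. Lama3, Col12a1 and Col27a1 lie beyond the right line and Col14a1 beyond the left one, with its second probe set near 0.

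The other collagens held differences in both directions, with 12 of 19 genes positive as deposited, 9 with the same median or after quantile normalization and 2 with the spike-ins set to 0. Their median was 0.05 as deposited, but -0.03 with the same median and -0.01 after quantile normalization, and 0.27 with a floor from the 75th percentile of all values. The other 6 of the 25 genes were under the floor. The fibril-associated collagens, which sit on the surface of fibrils, held the widest range. Col12a1, which bridges fibrils in dense connective tissue, had 579 in Lrrc19 KO and 349 in WT, 1.66-fold higher in Lrrc19 KO (0.73, rank 184). With the spike-ins set to 0 its difference was 0.23, under the threshold, and with all its probe sets averaged it did not reach the floor. A further probe set had 142 in Lrrc19 KO and 105 in WT, where it was under the floor. Its other 2 probe sets were under the floor in both pools.

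Col14a1, a close relative that also binds fibrils, was the 1 member called lower, with 199 in Lrrc19 KO and 302 in WT (1.52-fold lower, -0.60). Its second probe set gave 209.7 in Lrrc19 KO and 218 in WT (-0.06). The call was therefore not shared by both. The probe set that carries it can match several transcripts. Col20a1 had 421 in Lrrc19 KO and 283 in WT (0.57, 1.49-fold), just short of the threshold, on a probe set that can also match several transcripts. On a further probe set it had 181 in Lrrc19 KO and 164 in WT (0.15). Col16a1 had 229.5 in Lrrc19 KO and 178 in WT (0.37) and Col9a1, a collagen IX chain, had 225 in Lrrc19 KO and 196 in WT (0.20). Col9a3 had 143 in Lrrc19 KO and 145 in WT, and Col22a1, a collagen of tissue junctions, had 113 in Lrrc19 KO, under the floor, and 131 in WT.

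Collagen VI forms beaded microfibrils that link cells and basement membranes to the surrounding matrix. Its chains had like differences, from 0.21 to 0.34 over 4 genes, all under 1.5-fold and 4 of 4 positive as deposited, with the same median and after quantile normalization, though 0 of 4 with the spike-ins set to 0. In that last setting they ranged from -0.29 to -0.16, above the median of -0.49 over all genes. Col6a1 had 1645 in Lrrc19 KO and 1421 in WT, Col6a2 had 2763 in Lrrc19 KO and 2287 in WT, Col6a3 had 2346 in Lrrc19 KO and 1858 in WT, and Col6a4 had 293 in Lrrc19 KO and 239 in WT. Col6a5 was under the floor in both pools.

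Collagens VIII, XV and XVIII had lower values in the Lrrc19 KO pool on the brightest probe sets, none by 1.5-fold as deposited. The signs were the same after quantile normalization. Equal array medians and the spike-ins lower every difference, so they could not change these signs. Col8a1, a short-chain collagen of vessel walls, had 418 in Lrrc19 KO and 513 in WT (-0.29), and 169 in Lrrc19 KO and 196 in WT on a further probe set (-0.22). Col8a2 had 198 in Lrrc19 KO and 201 in WT (-0.02). Col18a1, whose cleaved end is endostatin, had 526 in Lrrc19 KO and 574 in WT (-0.12), with 443 in Lrrc19 KO and 429.6 in WT on a further probe set (0.05). Col15a1, the related collagen of vessel and muscle basement membranes, had 140.4 in Lrrc19 KO and 149 in WT (-0.09). Col7a1, which builds the anchoring fibrils of skin and other stratified epithelia, had 249 in Lrrc19 KO and 229.6 in WT (0.12). The transmembrane collagens Col13a1 (178 in Lrrc19 KO and 172 in WT), Col23a1 (136 in Lrrc19 KO and 134 in WT) and Col25a1 (163 in both) had differences of 0.0021 to 0.05. Col10a1, Col17a1, Col19a1, Col26a1 and Col9a2 were under the floor in both pools, at 26.8 to 104 in Lrrc19 KO and 27.3 to 66.0 in WT.

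Probe sets of the same gene mostly pointed the same way. Of 17 members with several probe sets at or above the floor, 15 had 1 sign throughout, and Col3a1 and Col18a1 had both signs with differences near 0. The pooled SD of the log2 difference between probe sets of 1 gene was 0.14 over 16 members and 0.22 over 4529 genes. It covers the disagreement between probe sets on the same 2 arrays and not the spread between mice.

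The enzymes and chaperones that finish collagen chains did not follow a single direction. Over 19 genes of collagen modification and secretion at the floor, of 26 listed, the median log2 difference was -0.00033, and 1 gene passed 1.5-fold. This was Plod2, a lysyl hydroxylase that prepares chains for crosslinking, with 314 in Lrrc19 KO and 204 in WT (0.62). Singled out after the values were seen, Serpinh1, the collagen chaperone HSP47, had 1590 in Lrrc19 KO and 1113 in WT (0.51), and Ppib, a prolyl isomerase that aids folding, had 3410 in Lrrc19 KO and 5098 in WT (-0.58), each short of the threshold of 1.5-fold. Of 15 crosslinking and fibril partners, 2 were called higher, Tnc (tenascin C) with 2505 in Lrrc19 KO and 1549 in WT (0.69) and Fn1 (fibronectin) with 2776 in Lrrc19 KO and 1822 in WT (0.61). The median of that list was 0.05.

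Of 10 basement membrane partners, 1 was called lower, Ntn4 (netrin 4), which binds laminin gamma chains, with 459 in Lrrc19 KO and 750.4 in WT (-0.71), and the list median was 0.09. Singled out after the values were seen, Hspg2, which encodes the basement membrane proteoglycan perlecan, had 1057 in Lrrc19 KO and 759.5 in WT (0.48). None of 14 receptors of collagen and laminin passed 1.5-fold, with a median of 0.17. The largest differences were those of the integrin alpha chains Itga7 (264 in Lrrc19 KO and 210.7 in WT, 0.32) and Itga1 (738 in Lrrc19 KO and 596 in WT, 0.31). None of 12 genes of collagen breakdown passed 1.5-fold, with a median of -0.01. The largest differences were those of the protease inhibitor Timp3 (1632 in Lrrc19 KO and 1281 in WT, 0.35) and the protease Mmp10 (157 in Lrrc19 KO and 184 in WT, -0.23).

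**Figure D4:**
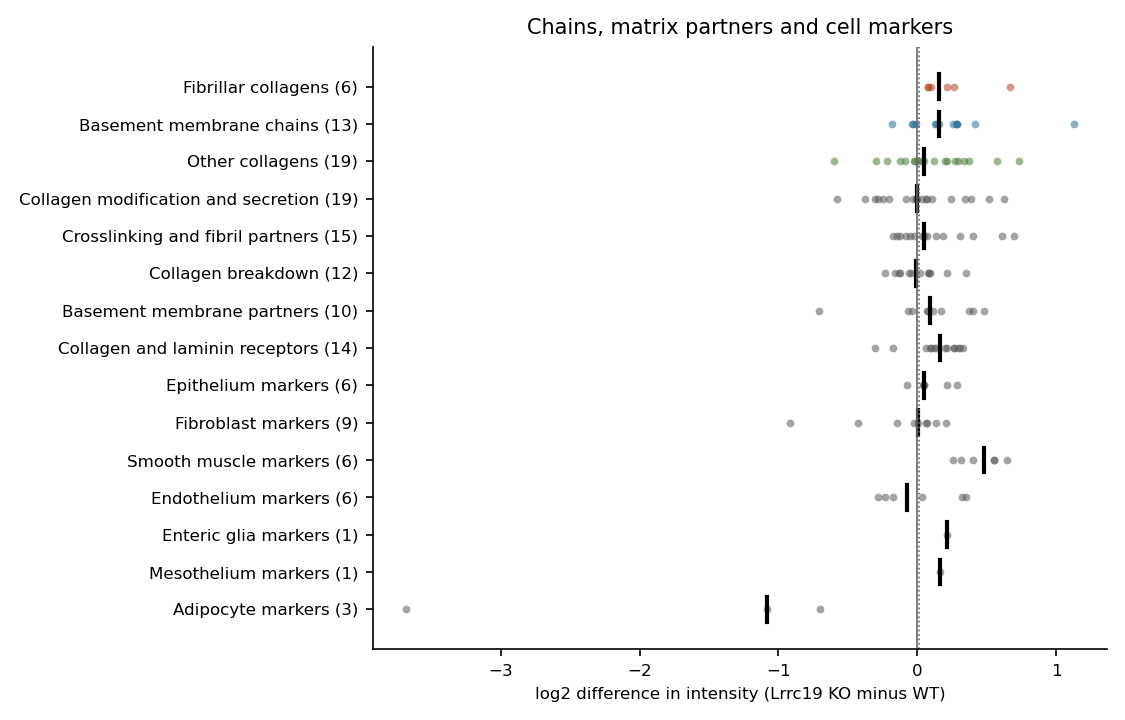
Log2 difference (Lrrc19 KO minus WT) of each gene at or above the floor (points) and the median (bar) in the 3 classes of chains, 5 lists of matrix partners and 7 lists of cell markers, with the number of genes in brackets. The dotted line is the median of all genes (0.01). Smooth muscle markers lie to the right (median 0.48) and adipocyte markers to the left (-1.08).

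The preparation was labelled as epithelial cells, and markers of other cells were measured in it beside the chains. All 6 epithelium markers reached the floor, with a median log2 difference of 0.05. All 9 fibroblast markers reached it too, with summed intensities of 14584 in Lrrc19 KO and 14754 in WT and a median of 0.0035, and 1 of them, the microfibril gene Mfap5, was called lower (134 in Lrrc19 KO and 252 in WT). Dcn, Lum and Postn stand in both that list and the list of fibril partners. All 6 smooth muscle markers had a positive difference as deposited, from 0.26 to 0.65. All 6 were also positive with the same median (0.18 to 0.57) and after quantile normalization (0.26 to 0.66). With the spike-ins set to 0, 3 of 6 were positive, and they ranged from -0.24 to 0.15, above the median of -0.49 over all genes. Their sums were 64091 in Lrrc19 KO and 48259 in WT, their median was 0.48, and Des (desmin) was called higher, with 6581 in Lrrc19 KO and 4206 in WT. The part of smooth muscle in the values of Col4a1, Col4a2, the collagen VI chains and Col12a1 was not tested.

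All 6 endothelium markers reached the floor, 3 with a positive and 3 with a negative difference, and the median was -0.07. Tek was the lowest, with 116 in Lrrc19 KO, under the floor, and 141 in WT (-0.28). The largest differences were those of Eng (endoglin), with 305 in Lrrc19 KO and 239 in WT (0.35), and Emcn (endomucin), with 197 in Lrrc19 KO and 158 in WT (0.32). Of 4 enteric glia markers, Sox10 reached the floor (325 in Lrrc19 KO and 279.9 in WT), and of 4 mesothelium markers, Upk3b did (199.7 in Lrrc19 KO and 178 in WT). The adipocyte list had the lowest median of these lists, -1.08. Of 6 listed, 3 reached the floor and all 3 were called lower as deposited and after quantile normalization. The other scalings lower every difference, so they could not undo such a call. Adipoq (adiponectin) had 24.4 in Lrrc19 KO, under the floor, and 313 in WT, and Fabp4 had 648 in Lrrc19 KO and 1372 in WT. Retn (resistin) had 123 in Lrrc19 KO, under the floor, and 199.8 in WT. No marker in these lists was at 0, but no deposited value was, the lowest being 1. A value above 0 therefore does not show that a cell type was present. The part of fat in the values of Col14a1 and Col8a1 was not tested.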

How the data were processed

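One array of the Affymetrix mouse 430 2.0 design was deposited for each genotype, hybridized with biotin-labelled cRNA of 5 pooled mice. The deposited values are linear intensities per probe set (lowest 1, highest 25842), and the array medians are 131 for Lrrc19 KO and 124 for WT. RMA, named without a version in the submitters' processing notes, normally yields log2 values of 1 distribution, so how the authors scaled the arrays is not settled. The intensities, none allowed under 1, were taken to log2 with Python 3.11.15, numpy 2.4.6 and pandas 2.3.3. Probe sets were named from the platform annotation: of 45101, 34945 had 1 gene symbol, 932 had several, 9160 were unnamed here and 64 were controls, and 34741 of the single symbols were in the RefSeq table. The brightest probe set stood for its gene. No model was fitted, and having 1 array for each genotype limits the precision. Members were named when past 1.5-fold or when their probe sets disagreed in sign, and the rest by value or count. Up to 4 genes past 1.5-fold were named in each partner list, or else the 2 with the largest differences. The members and lists were chosen with earlier results of these data known. Alternatives were other floors, scalings and rules for the probe set of a gene, and no array was left out.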

Additional observations from a re-analysis of the deposited data

How the results depend on the processing

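Setting the spike-ins to 0 changed most: the median log2 difference became -0.37 over all members (39 of them, with the floor applied again), -0.40 in fibrillar collagens, -0.34 in basement membrane chains and -0.45 in other collagens. In that setting 1 member was at least 1.5-fold higher and 5 lower, beside 0.40% and 36.0% of all genes. At 2-fold, 0 members were higher and 1 lower, beside 0.17% and 5.21% of all genes. The member at least 1.5-fold lower (Col14a1) was no longer called (0 members) with a floor from the 75th percentile, with the mean of all probe sets (-0.27) or without probe sets that can match several transcripts (-0.06). Lama3 was not at least 2-fold higher with the mean of all probe sets (0 members), and without probe sets that can match several transcripts it was under the floor (0 members). The other 59 comparisons of class medians and counts with their alternatives, among them no floor, values set to the floor, quantile normalization and updated symbols, moved a median by less than 0.27 (the robust SD over all genes) and left a count within 1.5 times. That allowance is wider than the medians: over all members the median was 0.26 with the floor from the 75th percentile and 0.05 with equal array medians, in basement membrane chains 0.28 and 0.07, in fibrillar collagens 0.16 and 0.08, and in other collagens 0.27 and -0.03, with -0.01 after quantile normalization and 0.02 once probe sets that can match several transcripts were left out. In fibrillar collagens it was 0.10 with no floor and also once those probe sets were left out. Of all 12523 genes reaching the floor with equal array medians, 238 were at least 1.5-fold higher and 655 lower (53 and 76 at 2-fold). Of 12996 with the spike-ins, 52 were higher and 4675 lower (22 and 677 at 2-fold). As deposited, it was 348 and 425 of 12518 (70 and 51 at 2-fold). No single array could be left out, since each genotype has 1. No paired analysis was possible because each genotype has 1 array. Genes near the floor of 127 are limited by signal over background, and 14 of 52 members gave no difference for that reason. Protein sequence features of the chains were not analysed here.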
